A study of Mus musculus with 2 samples.

Results

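Mesothelin (Msln) is a surface glycoprotein best known from the mesothelial cells that line the pleura, and it is also made by activated fibroblasts of some injured organs. The cells described here are fibroblasts of bleomycin-treated mouse lung that carried Msln transcripts: 319 of the 3327 non-cycling fibroblasts in the bleomycin library, and of 9928 cell barcodes in the whole study. They were chosen by measured values, as barcodes with at least 500 genes and at most 10% mitochondrial transcripts in which Col1a1, Col1a2, Col3a1, Dcn and Pdgfra together made at least 20 of every 10000 unique molecular identifiers (UMIs, each one a captured transcript). They had no UMI of the immune gene Ptprc, the endothelial gene Pecam1 or the epithelial gene Epcam, fewer than 4 UMIs of Mki67, Top2a, Cdk1, Ube2c and Birc5 together, and at least 1 UMI of Msln. They are called Msln fibroblasts below. Bleomycin fibroblasts without Msln were divided into 931 cells with at least 2 UMIs of Cthrc1, a secreted glycoprotein gene that marks matrix-producing fibroblasts of the fibrotic lung (Cthrc1 fibroblasts), and 2077 others. The same fibroblast rule gave 3556 saline fibroblasts.

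The study sorted live lung cells that expressed the red fluorescent reporter tdTomato and profiled them by droplet RNA sequencing. There was 1 library from bleomycin-treated and 1 from saline-treated mice. Both used mice of genotype Lepr-Cre;Rosa26-tdtomato aged 8 to 10 weeks. In this design Cre recombinase driven by the leptin receptor gene switches the reporter on for good, so a sorted cell had Lepr-Cre activity at some time and need not express Lepr when it was collected. Lepr itself stood at 1.85 UPM (UMIs per 1000000 UMIs of the set) in Msln fibroblasts, 2.51 UPM in Cthrc1 fibroblasts, 5.03 UPM in the other bleomycin fibroblasts and 45.2 UPM in saline fibroblasts. The labels do not say how many animals stand behind each library, nor the bleomycin dose or the time after it.

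With 1 library per treatment there is no replicate error and no test, and cells of 1 library are not replicates. UMIs were therefore summed over each set of cells and given as UPM, with intervals that cover counting error only (95%, exact). The bleomycin library held 61537182 UMIs and the saline library 37570380. Msln fibroblasts were the deepest set, with a median of 18034 UMIs per cell, against 15284 in Cthrc1 fibroblasts, 11298 in the other bleomycin fibroblasts and 6778.5 in saline fibroblasts. A deeper cell has more chances to show 1 Msln UMI, so depth moved with membership; its part in the result was not tested beyond the thinned values given below. The libraries shared 33 barcodes, of which 3 belonged to Msln fibroblasts.

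Bleomycin injures the alveolar epithelium and is widely used to bring about lung fibrosis in mice. In the injured lung, resident fibroblasts leave their resting program and lay down collagen, and the cells that do so differ among themselves: some carry contractile genes, some inflammatory genes, and some Cthrc1 with periostin and tenascin C. The genes that travel with Msln are described below in that frame.

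Msln transcripts were almost absent from fibroblasts of the saline library. The bleomycin library held 1623 Msln UMIs, 1385 of them in the 319 Msln fibroblasts, while the saline library held 39 in all and 1 among its 3556 fibroblasts. Msln fibroblasts made up 9.59% of bleomycin fibroblasts (exact binomial interval 8.61 to 10.6%). A Msln UMI was present in 0.0281% of saline fibroblasts. With every cell thinned to 5000 UMIs, Msln was found in 166 of 3226 bleomycin fibroblasts (5.15%) and in 1 of 2803 saline fibroblasts (0.0357%), after 101 bleomycin and 753 saline cells that were too shallow had been left out. Treatment and library cannot be told apart in this design.

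Some of the single Msln UMIs lie within the range of free RNA. In the bleomycin library exactly 1 Msln UMI was found in 156 fibroblasts (4.69%, interval 3.996 to 5.46%), in 6 of 280 immune cells (2.14%, 0.790 to 4.61%) and in 7 of 184 endothelial cells (3.804%, 1.54 to 7.68%). The median depth was 13091 UMIs in fibroblasts, 6836.5 in immune cells and 7615.5 in endothelial cells. After thinning to 5000 UMIs, 5.15% of fibroblasts, 1.35% of immune cells and 3.70% of endothelial cells had a Msln UMI, and the intervals of fibroblasts (4.41 to 5.97%) and endothelial cells (1.37 to 7.89%) overlapped. Cells with 2 or more Msln UMIs were 163 fibroblasts (4.90%), no immune cell and 1 endothelial cell, which held 37 UMIs. The exact binomial bound for 0 of 280 immune cells is 1.31%. The members with 1 UMI are therefore kept apart from the others wherever levels are given by Msln count.

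Among the 319 members, 156 had 1 Msln UMI, 85 had 2 to 4 and 78 had 5 or more, and the highest cell held 53. The 78 cells with 5 or more held 991 of the 1385 UMIs. By the rule, the nearest cells outside were 3008 bleomycin fibroblasts with no Msln UMI, and 33 cycling fibroblasts with Msln were left out. A further 17 barcodes with Msln failed the fibroblast genes and 14 had a UMI of an excluded gene.

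The defining transcripts of mesothelial cells were at or near 0 in Msln fibroblasts. Of 16 mesothelial markers, Upk3b, Lrrn4, Muc16, Krt8, Bnc1 and Calb2 had 0 UMIs in the 319 cells, Wt1 had 1 UMI and Krt19 had 2. The most abundant of the 16 was Upk1b, a uroplakin gene, at 132 UPM in Msln fibroblasts. It was also at 85.6 UPM in Cthrc1 fibroblasts, 111 UPM in the other bleomycin fibroblasts and 94.5 UPM in saline fibroblasts, so it was present in every fibroblast set. The summed level of all 16 markers was 171 UPM in Msln fibroblasts, against 132 UPM in Cthrc1 fibroblasts, 191 UPM in the other bleomycin fibroblasts and 216 UPM in saline fibroblasts. Summed endothelial markers stood at 12.8 UPM, alveolar type 2 markers at 9.92 UPM and alveolar type 1 markers at 4.87 UPM in Msln fibroblasts, and each list was under 25 UPM in both other bleomycin sets. The 10 macrophage markers summed to 152 UPM in Msln fibroblasts, 98.7 UPM in Cthrc1 fibroblasts and 151 UPM in the other bleomycin fibroblasts.

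Markers of fibrotic fibroblasts were split in these cells. By the 2-fold rule explained below, 0 of 11 measured were higher and 7 lower than in Cthrc1 fibroblasts. Among all genes 1.93% were higher and 2.42% lower there. Over the other bleomycin fibroblasts 4 of 10 were higher and 4 lower, against 2.99% and 5.94% of all genes. Over saline fibroblasts 5 of 9 were higher and 0 lower, against 7.56% and 15.1%. Cthrc1 is in each of these counts, and the rule fixed its direction over both bleomycin sets. It had 284 UPM in Msln fibroblasts and 976 UPM in Cthrc1 fibroblasts. The 12 listed genes of fibrotic fibroblasts, Cthrc1 among them, summed to 1533 UPM in Msln fibroblasts, against 3442 UPM in Cthrc1 fibroblasts, 1365 UPM in the other bleomycin fibroblasts and 281 UPM in saline fibroblasts. Of the members, 145 (45.5%) had 2 or more Cthrc1 UMIs themselves. Postn, the matricellular protein periostin, had 396 UPM in Msln fibroblasts, 848 UPM in Cthrc1 fibroblasts, 111 UPM in the other bleomycin fibroblasts and 17.3 UPM in saline fibroblasts. Col1a1, the main fibrillar collagen chain and a gene of the fibroblast rule, had 5964 UPM in Msln fibroblasts, 8484 UPM in Cthrc1 fibroblasts, 3260.2 UPM in the other bleomycin fibroblasts and 1464 UPM in saline fibroblasts. Both genes were between Cthrc1 fibroblasts and the other bleomycin fibroblasts in level, but Tnc, Runx1, Sfrp1 and Ltbp2 were lower in Msln fibroblasts than in the other bleomycin fibroblasts. Ltbp2, for one, had 50.8 UPM in Msln fibroblasts, 171 UPM in the other bleomycin fibroblasts and 69.6 UPM in saline fibroblasts.

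To place Msln fibroblasts among fibroblast states without using the rule, the 3327 bleomycin fibroblasts were clustered with all 15 genes of the rule removed. Of 15 clusters, 1 held most of them: cluster 6, of 448 cells, contained 205 of the 319 members (64.3%) and 77.1% of the Msln UMIs of fibroblasts. Genes other than those of the rule took part in the clustering, and its leading genes were Anxa8, Mt3, Mmp13, Sbsn, Cdh13 and Sncg. Members made up 45.8% of cluster 6 (41.1 to 50.5%), 21.3% of the 136 cells of cluster 7 and 9.18% of the 196 cells of cluster 8, and between 0 and 7.69% of each of the other 12. In cells thinned to 5000 UMIs, Msln was found in 26.3% of cluster 6 and in 11.8% of cluster 7. In the 10 remaining clusters of at least 50 cells it was found in at most 4.62%. Of the 78 cells with 5 or more Msln UMIs, 65 lay in cluster 6 and 9 in cluster 7.

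**Figure D1:**
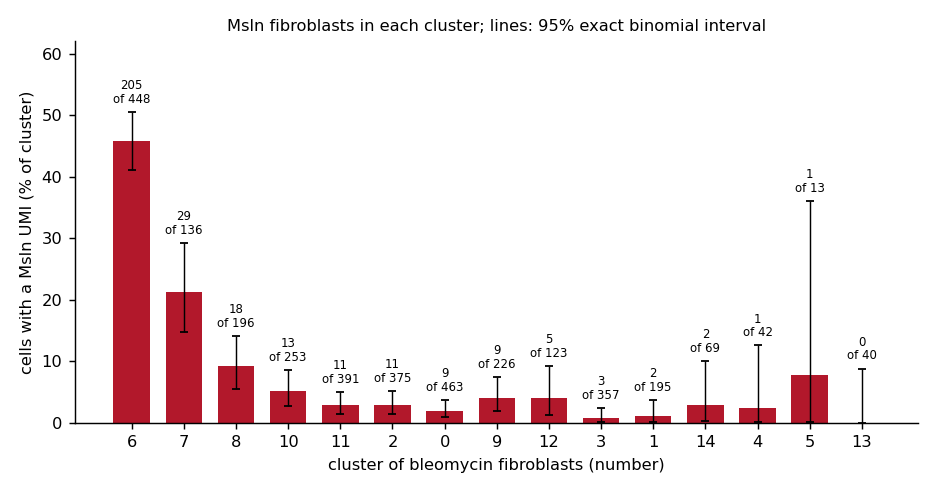
Share of cells with a Msln UMI in each of 15 clusters of bleomycin fibroblasts made without the genes of the rule; bars are percentages of the cluster's cells, lines exact binomial intervals, and the counts stand above. Cluster 6 reaches 45.8% and cluster 7 21.3%, while the widest intervals belong to clusters of few cells.

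Msln was detected in less than the whole of that state. Cluster 6 also held 243 cells with no Msln UMI, 138 of them Cthrc1 fibroblasts. Anxa8 was at 570.3 UPM in the 205 members of the cluster and 316 UPM in its 243 cells without Msln, against 127 UPM in the 114 members elsewhere. S100a4 was at 5836 UPM in members of the cluster, 4576 UPM in its cells without Msln and 1978 UPM in members elsewhere. Igfbp6 was at 2939.8 UPM in members of the cluster, 1865 UPM in its cells without Msln and 805 UPM in members elsewhere. For all 3 genes the cells of the cluster without Msln stood nearer to its members than members elsewhere did. The clustering used these genes, so likeness within a cluster is in part its construction. The median depth was 18624 UMIs in members of the cluster and 15689 in its cells without Msln.

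Msln fibroblasts and Cthrc1 fibroblasts of the same library differed in few genes. A gene was called where the higher set had at least 50 UMIs and 20 UPM and the log2 ratio, with 1 UPM added to each side, was at least 1 in size. Of 5282 genes with that depth, 102 were higher in Msln fibroblasts (1.93%) and 128 were lower (2.42%), and the median log2 ratio was -0.04. The counts include Msln among the higher and Cthrc1 among the lower genes, which the rule fixed. Where the Cthrc1 fibroblasts were limited to those of cluster 6, a choice made after seeing the data, 36 genes were higher and 7 lower. All 319 members were kept there, 114 of them outside the cluster. Below, a ratio over the Cthrc1 fibroblasts of cluster 6 means this setting. Between the 205 members and the 138 Cthrc1 fibroblasts of cluster 6 alone, 13 were higher and 18 lower, and between the 114 members and 793 Cthrc1 fibroblasts outside it, 102 were higher and 76 lower. Of the genes called over all Cthrc1 fibroblasts, 7 higher and 12 lower ones were also called inside cluster 6, and 64 higher and 59 lower ones outside it. With all members over the Cthrc1 fibroblasts of cluster 6, only 9 higher and 5 lower ones were also called.

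Apart from Msln, which the rule fixed, 2 of the 3 named genes with the highest ratios encode matrix-degrading enzymes. Mmp13, an interstitial collagenase, had 93.6 UPM in Msln fibroblasts and 12.7 UPM in Cthrc1 fibroblasts, a log2 ratio of 2.79 (interval of the ratio without the added UPM 2.64 to 3.13). It was at 11.3 UPM in the other bleomycin fibroblasts and 0.393 UPM in saline fibroblasts. Mmp3, stromelysin, which cleaves many matrix proteins and activates other proteases, had 658 UPM in Msln fibroblasts and 109 UPM in Cthrc1 fibroblasts (log2 ratio 2.58, 2.51 to 2.68). Between members and Cthrc1 fibroblasts inside cluster 6 both stood at 1.16. With all members over the Cthrc1 fibroblasts of cluster 6 neither was called, at 0.98 for Mmp3 and 0.77 for Mmp13. In thinned cells Mmp3 was found in 52.5% of Msln fibroblasts, 16.2% of Cthrc1 fibroblasts, 21.3% of the other bleomycin fibroblasts and 14.5% of saline fibroblasts, and in 2.24% of immune cells of the bleomycin library. Of 10 measured metalloproteinases and inhibitors these 2 were higher, against 1.93% of all genes, and the gelatinase Mmp2 was lower at 206 UPM in Msln fibroblasts and 438 UPM in Cthrc1 fibroblasts (-1.09), against 2.42% lower among all genes. Mmp2 turned to 0.14 over the Cthrc1 fibroblasts of cluster 6, and Adam19 to 0.20. With both sets inside the cluster Mmp2 stood at -0.56 and Adam19 at -0.44. The aggrecanase Adamts5 was higher (1.34) and the protease Adam19 lower (-1.39) among 8 ADAM and ADAMTS genes.

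Since collagenase and stromelysin genes are textbook targets of the AP-1 transcription factors, their promoters are shown with those of Sbsn, which has the motif in its window, and of Anxa8, a leading marker without it. The sequences are from RefSeq on GRCm38.p6, 250 bases before to 50 after the start of transcription, in the direction of the gene. Capitals mark the AP-1 motif TGANTCA, which reads the same on both strands apart from its middle base. The windows lie at chr9:7272264-7272563 (plus strand), chr9:7445572-7445871 (plus), chr7:30751221-30751520 (plus) and chr14:34085729-34086028 (plus).
Mmp13: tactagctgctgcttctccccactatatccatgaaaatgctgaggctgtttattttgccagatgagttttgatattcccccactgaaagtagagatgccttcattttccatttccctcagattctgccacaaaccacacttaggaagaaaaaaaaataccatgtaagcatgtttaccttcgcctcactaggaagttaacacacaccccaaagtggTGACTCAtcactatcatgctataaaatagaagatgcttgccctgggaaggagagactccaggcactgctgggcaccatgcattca
Mmp3: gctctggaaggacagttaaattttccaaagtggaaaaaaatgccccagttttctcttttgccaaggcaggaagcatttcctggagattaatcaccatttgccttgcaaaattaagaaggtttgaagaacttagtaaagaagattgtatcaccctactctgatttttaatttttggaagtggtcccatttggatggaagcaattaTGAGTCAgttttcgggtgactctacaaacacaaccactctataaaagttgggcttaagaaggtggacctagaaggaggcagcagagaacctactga
Sbsn: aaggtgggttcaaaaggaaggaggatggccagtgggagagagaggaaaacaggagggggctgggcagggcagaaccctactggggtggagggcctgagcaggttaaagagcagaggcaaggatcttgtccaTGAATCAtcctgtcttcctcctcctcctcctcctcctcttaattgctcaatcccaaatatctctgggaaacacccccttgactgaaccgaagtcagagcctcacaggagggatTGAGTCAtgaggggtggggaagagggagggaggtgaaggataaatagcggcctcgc
Anxa8: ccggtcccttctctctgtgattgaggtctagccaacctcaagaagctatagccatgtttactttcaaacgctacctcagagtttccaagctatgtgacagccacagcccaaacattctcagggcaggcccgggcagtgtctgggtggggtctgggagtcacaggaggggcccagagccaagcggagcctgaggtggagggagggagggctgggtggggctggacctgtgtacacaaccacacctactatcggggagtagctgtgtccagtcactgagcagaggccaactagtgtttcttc
The motif began 35 bases before the start of Mmp13, 46 before that of Mmp3, and 119 and 6 before that of Sbsn. It was in 18 of the 99 promoter windows of the genes higher in Msln fibroblasts (18.2%), in 8 of 117 windows of the lower genes (6.84%) and in 2565 of all 32851 windows of the table (7.81%). For the markers and the 15 highest genes it was in 5 of 13 windows, and for the 15 lowest in 2 of 14. Sncg, S100a4, Igfbp6, Sema3e, Ntn4 and Ly6c1 lacked it, as Anxa8 did, while the lower genes Igf1 and Adcy7 had it. The TEAD motif GGAATG, searched on both strands, was in 12 windows of the higher genes (12.1%), 14 of the lower genes (12.0%) and 14.7% of all windows. The table had windows for 75 of the 102 higher genes and 86 of the 127 lower genes apart from Cthrc1, so the shares cover those alone. A match describes these letters only, and the genes had been chosen by their ratios.

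The surface and calcium-binding genes that mark the cells came next. These markers were chosen with earlier results of these data known, so their direction is a description. Anxa8, an annexin that binds membranes in the presence of calcium, had 421 UPM in Msln fibroblasts and 71.7 UPM in Cthrc1 fibroblasts (2.54, 2.45 to 2.66). It had 28.6 UPM in the other bleomycin fibroblasts and 0.669 UPM in saline fibroblasts, and it was found in 58.2% of thinned Msln fibroblasts and 13.1% of thinned Cthrc1 fibroblasts, against 2.24% of thinned immune cells of the library. Anxa8 was the 1 of 9 annexins called; Anxa2 stood at 0.85 and Anxa1 at 0.60 on the log2 scale. S100a4, a calcium-binding protein long used as a fibroblast marker, had 4536 UPM in Msln fibroblasts, 1987 UPM in Cthrc1 fibroblasts, 819 UPM in the other bleomycin fibroblasts and 16.6 UPM in saline fibroblasts. Its log2 ratio over Cthrc1 fibroblasts was 1.19 (1.17 to 1.21), but -0.064 over the Cthrc1 fibroblasts of cluster 6. S100a10, the partner of Anxa2, behaved alike, at 1.19 over all Cthrc1 fibroblasts and -0.23 over those of cluster 6. These were the 2 higher of 7 measured S100 genes, none of which was lower. For annexins and S100 genes alike, the share over all genes was 1.93% higher and 2.42% lower. With both sets inside cluster 6 S100a4 stood at 0.30 and S100a10 at 0.098. Anxa8 stood at 0.32 over the Cthrc1 fibroblasts of cluster 6.

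Sncg, gamma-synuclein, known from neurons and fat cells, had 328 UPM in Msln fibroblasts and 79.8 UPM in Cthrc1 fibroblasts (2.03, 1.94 to 2.15). Sbsn, suprabasin, and Ppl, periplakin, which are best known from stratified epithelium, stood at 2.30 and 2.15 on the log2 scale. Sbsn had 175 UPM in Msln fibroblasts, 34.8 UPM in Cthrc1 fibroblasts and 8.65 UPM in saline fibroblasts. Ppl had 31.3 UPM in Msln fibroblasts, 6.28 UPM in Cthrc1 fibroblasts and 15.9 UPM in saline fibroblasts, so its saline level lay between the others. Cdh13, an adhesion molecule tied to the membrane by a lipid anchor, had 91.8 UPM in Msln fibroblasts and 14.9 UPM in Cthrc1 fibroblasts (2.54). Cd24a, a small surface glycoprotein, and Ly6c1, a surface protein of the Ly6 family, stood at 2.11 and 1.94. Lims2, an adaptor at cell-matrix adhesions, stood at 1.94. All of these were also called over the other bleomycin fibroblasts. Over the Cthrc1 fibroblasts of cluster 6 each of them was under 2-fold. Sncg stood at 0.12 there, Ly6c1 at 0.13, Lims2 at 0.42, Cd24a at 0.48, Ppl at 0.54, Sbsn at 0.55 and Cdh13 at 0.59. With both sets inside cluster 6 they ranged from 0.38 (Ly6c1) to 0.99 (Cdh13).

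Genes of secreted signals were called in both directions. Igfbp6, a binding protein that prefers insulin-like growth factor 2, had 2220.4 UPM in Msln fibroblasts, 548 UPM in Cthrc1 fibroblasts, 306 UPM in the other bleomycin fibroblasts and 786 UPM in saline fibroblasts, a log2 ratio of 2.02 over Cthrc1 fibroblasts (1.98 to 2.06). Igf1, the growth factor itself, was lower, with 81.4 UPM in Msln fibroblasts and 406 UPM in Cthrc1 fibroblasts (-2.31, -2.46 to -2.19). Igf1 was 388 UPM in the other bleomycin fibroblasts and 292 UPM in saline fibroblasts, so Msln fibroblasts were the lowest of the 4 sets, but over the Cthrc1 fibroblasts of cluster 6 Igf1 turned to 0.99. Igfbp3 and Igfbp5 were higher and Igfbp2 lower, the last with 24 UMIs in all Msln fibroblasts, 54.2% of them in 1 cell. Sema3e and Ntn4, which encode guidance cues of axons and vessels, were higher at 2.18 and 1.97. The secreted phospholipase Pla2g2e was higher at 2.15, with 29.9 UPM in Msln fibroblasts and 5.95 UPM in Cthrc1 fibroblasts. Hbegf, a ligand of the epidermal growth factor receptor, was lower at -2.29, and Mdk, the heparin-binding growth factor midkine, at -1.77. Over the Cthrc1 fibroblasts of cluster 6 Mdk turned to 1.05, Igfbp2 to 0.71 and Igfbp5 to -0.19, while Hbegf stood at -0.53. With both sets inside cluster 6 Mdk stood at -0.94, Igf1 at -1.18, Hbegf at -0.59, Igfbp5 at 0.089 and Igfbp2 at 0.85. Members in the cluster had 7.10 UPM of Mdk and members elsewhere 78.8 UPM. Over the Cthrc1 fibroblasts of cluster 6 Igfbp6 stood at 0.20, Sema3e at 0.53, Ntn4 at 0.68 and Pla2g2e at 0.50.

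**Figure D2:**
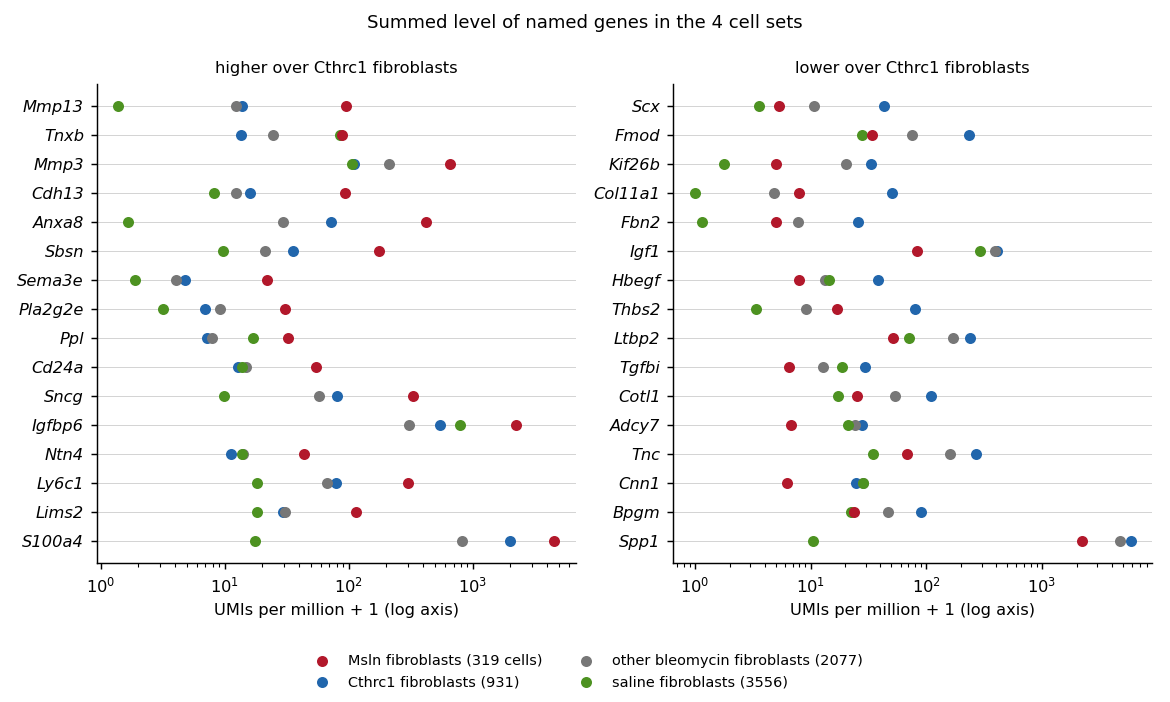
Summed level of the named genes with the highest (left) and lowest (right) ratios over Cthrc1 fibroblasts, with S100a4 and Spp1 added, in UPM plus 1 on a log axis; each point is 1 set of cells. Red points (Msln fibroblasts) lie right of blue points (Cthrc1 fibroblasts) on the left and left of them on the right, while green points (saline fibroblasts) lie beside the red ones for Tnxb.

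Tnxb was as high in saline fibroblasts as in Msln fibroblasts. This gene of tenascin X, a matrix protein of loose connective tissue, had 86.9 UPM in Msln fibroblasts and 84.6 UPM in saline fibroblasts, a log2 ratio of 0.04. It had 12.6 UPM in Cthrc1 fibroblasts and 23.8 UPM in the other bleomycin fibroblasts. Tnxb thus stood higher in Msln fibroblasts than in both other bleomycin sets (2.70 and 1.83).

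Several genes of matrix assembly were lower in Msln fibroblasts. Of 13 measured matricellular genes 0 were higher and 7 lower: Spp1, Postn, Tnc, Thbs2, Ccdc80, Wisp1 and Cthrc1, with Cthrc1 lower by the rule, against 2.42% lower among all genes. Tnc, tenascin C, had 66.9 UPM in Msln fibroblasts and 269.9 UPM in Cthrc1 fibroblasts (-2.00, -2.16 to -1.86). Thbs2, a thrombospondin, had 15.8 UPM in Msln fibroblasts and 79.2 UPM in Cthrc1 fibroblasts (-2.26). Of 14 elastic fibre genes 0 were higher and 5 lower, namely Fbn2, Fbln5, Mfap2, Mfap4 and Ltbp2. Ltbp2, which binds fibrillin microfibrils, had 50.8 UPM in Msln fibroblasts and 235 UPM in Cthrc1 fibroblasts (-2.19). Of 16 collagens 0 were higher and 3 lower, Col8a1, Col11a1 and Col14a1; Col11a1 had 6.89 UPM in Msln fibroblasts and 49.8 UPM in Cthrc1 fibroblasts. Over the Cthrc1 fibroblasts of cluster 6 these genes did not all stay lower: Spp1 turned to 1.52, Col8a1 to 0.74, Fbln5 to 0.37, Fbn2 to 0.22 and Ltbp2 to 0.17, while Postn stood at -1.30 and Thbs2 at -1.26. With both sets inside cluster 6 Spp1 stood at -0.61, Col8a1 at -0.96, Fbln5 at -0.17, Fbn2 at -0.78 and Ltbp2 at -0.76. Tnc stood at -0.33 over the Cthrc1 fibroblasts of cluster 6 and at -1.03 with both sets inside it. Col11a1 stood at -1.09 and -1.97.

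Of 12 measured proteoglycan and hyaluronan genes 0 were higher and 3 lower, Fmod, Lum and Aspn, with a median log2 ratio of -0.14. Among all genes 1.93% were higher and 2.42% lower. Fmod, fibromodulin, which regulates collagen fibril size, had 32.9 UPM in Msln fibroblasts and 232 UPM in Cthrc1 fibroblasts (-2.78, -3.03 to -2.61). Lum rested on 68 UMIs in Msln fibroblasts, 72.1% of them in 1 cell, and stood at 2.22 over the Cthrc1 fibroblasts of cluster 6. Scx, the tendon transcription factor scleraxis, had 4.37 UPM in Msln fibroblasts and 41.9 UPM in Cthrc1 fibroblasts (-2.998), but 0.62 over those of cluster 6. With both sets inside cluster 6 Scx stood at -0.093 and Lum at 0.18. Kif26b, a kinesin family gene, stood at -2.73. Over the Cthrc1 fibroblasts of cluster 6 Fmod stood at -0.33 and Kif26b at -0.83, and with both sets inside it at -1.47 and -1.82.

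Of 13 measured genes around TGF-beta signalling 0 were higher and 4 lower, against 1.93% and 2.42% of all genes: Tgfb3, a ligand (-1.43), Inhba, which encodes the activin A subunit (-1.71), the induced matrix protein Tgfbi (-2.18) and Ltbp2, already counted above. Over the Cthrc1 fibroblasts of cluster 6 Tgfb3 turned to 0.12, Ltbp2 to 0.17 and Runx1 to 0.031. Inhba stood at -0.35 there and Tgfbi at -0.80. With both sets inside cluster 6 Tgfb3 stood at -0.085, Inhba at -0.27, Tgfbi at -0.69, Ltbp2 at -0.76 and Runx1 at -0.66. Inhba had 18.5 UPM in Msln fibroblasts and 62.6 UPM in Cthrc1 fibroblasts. Runx1, a transcription factor of fibroblast activation, had 35.8 UPM in Msln fibroblasts and 102 UPM in Cthrc1 fibroblasts (-1.48). Among 15 contractile genes 0 were higher and 2 lower, Cnn1 and Actg2, against the same 1.93% and 2.42%, and Cnn1 turned to 0.39 over the Cthrc1 fibroblasts of cluster 6. Acta2, smooth muscle actin, was not called, at 1434 UPM in Msln fibroblasts and 2033 UPM in Cthrc1 fibroblasts (-0.50). Of 17 listed transcription factors of activation 9 were measured, and Runx1 was the 1 called. Cotl1, an actin-binding protein gene, and the adenylate cyclase gene Adcy7 were lower at -2.13 and -2.06, and the glycolytic enzyme gene Bpgm at -1.91. Over the Cthrc1 fibroblasts of cluster 6 Cotl1 turned to 0.47 and Bpgm to 1.001, while Adcy7 stood at -0.026. With both sets inside it Cotl1 stood at -0.35, Cnn1 at -0.43, Adcy7 at -1.59 and Bpgm at 0.34.

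Chemokines were split. Ccl2, Cxcl1 and Cxcl13 were higher and Ccl11, Cxcl9, Cxcl10 and Cxcl16 lower among 10 measured, against 1.93% higher and 2.42% lower among all genes. Over the Cthrc1 fibroblasts of cluster 6 Ccl11 turned to 1.07, Cxcl9 to 0.62 and Cxcl10 to 0.54. With both sets inside it Ccl11 stood at -0.059, Cxcl9 at 0.089 and Cxcl10 at -0.14. Without comparison cells with 2 or more UMIs of Pi16, Ccl11, Cxcl9 and Scx, also chosen after seeing the data, Ccl11 turned to 1.13 and Cxcl9 to 0.18. Cxcl9 and Ccl11 rested on 7 and 17 UMIs in Msln fibroblasts. No gene was called among 9 measured cytokine and acute phase genes, 7 complement genes, 11 interferon response genes, 12 immediate early genes and 12 genes of the secretory pathway. Of 9 cathepsins, inhibitors and lysosomal genes Ctla2a and Lgals3 were higher; Lgals3, galectin-3, had 1848 UPM in Msln fibroblasts and 731 UPM in Cthrc1 fibroblasts (1.34, but -0.088 over those of cluster 6). Mustn1, a small gene known from muscle and skeleton, had 985 UPM in Msln fibroblasts and 321 UPM in Cthrc1 fibroblasts (1.61, but 0.098 over those of cluster 6).

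Within the members, cells with more Msln stood farther from Cthrc1 fibroblasts. Over the 101 higher genes apart from Msln, the median log2 ratio was 1.07 in cells with 1 Msln UMI, 1.48 with 2 to 4 and 1.62 with 5 or more. Over the 127 lower genes apart from Cthrc1 it was -0.92, -2.00 and -2.21. These genes had been called in the same cells, so the direction was fixed by that choice, and the difference between the classes is what the values add. Anxa8 stood at 250.2, 519 and 612 UPM in the 3 classes from 1 to 5 or more Msln UMIs, and Mmp13 at 37.4, 103 and 179 UPM. Spp1, osteopontin, stood at 4227, 532 and 537 UPM, and Igf1 at 159, 20.01 and 11.7 UPM. For both genes the classes with 2 or more Msln UMIs lie far under the class with 1. The median depth was 16830, 17878 and 19078.5 UMIs in the 3 classes.

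Spp1 differed widely among the members. Over the whole set it had 2229 UPM in Msln fibroblasts and 5833 UPM in Cthrc1 fibroblasts (-1.39), 4717 UPM in the other bleomycin fibroblasts and 9.48 UPM in saline fibroblasts. Inside cluster 6 the members were at 510.4 UPM and members elsewhere at 5608 UPM. Against the Cthrc1 fibroblasts of cluster 6 the log2 ratio of all members was 1.52, the opposite direction. With both sets inside the cluster the log2 ratio of Spp1 was -0.61. Inmt, an enzyme of resting alveolar fibroblasts, also turned: it stood at 1.502 over Cthrc1 fibroblasts, but at 495 UPM in cells with 1 Msln UMI and 53.2 and 48.8 UPM in the classes above. With members of at least 2 Msln UMIs its log2 ratio was -0.80.

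**Figure D3:**
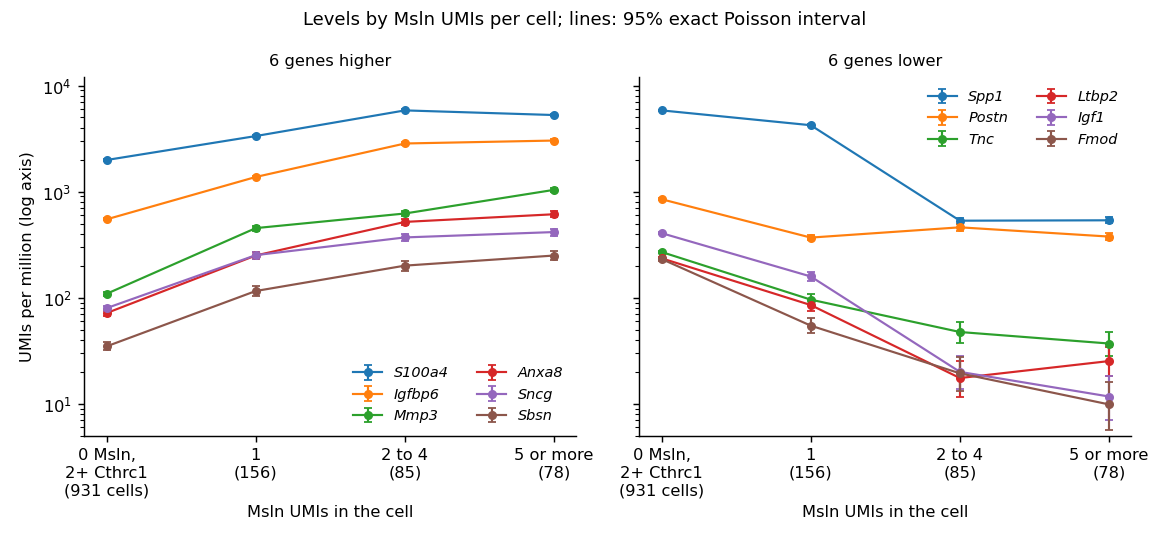
Levels of 6 genes higher (left) and 6 lower (right) in Msln fibroblasts, in UPM on a log axis, by the number of Msln UMIs in the cell; lines are exact Poisson intervals and the first class is the Cthrc1 fibroblasts without Msln. Spp1 stands at 4227 UPM with 1 Msln UMI and 532 with 2 to 4, while Postn stays between 369 and 461 in the 3 classes with Msln.

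The 145 members with 2 or more Cthrc1 UMIs had a median log2 ratio over Cthrc1 fibroblasts of 1.33 for the higher genes and -1.52 for the lower genes, against 1.39 and -1.40 in the 174 members with fewer. Postn stood at 598 UPM in members with Cthrc1 and 207 UPM in members with fewer than 2 Cthrc1 UMIs (written as without it), Anxa8 at 495 UPM in members with it and 352 UPM in members without it. S100a4 stood at 5589 UPM in members with Cthrc1 and 3553 UPM in members without it, and Mmp3 at 628 UPM with it and 687 UPM without it. All 4 genes were present in both kinds of member, and of the 101 higher genes 97 kept their sign in members with Cthrc1 and 101 in members without. The genes had been called on the sum of both kinds of member, so their direction in each was largely fixed by that choice.

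Inside cluster 6, cells with Msln and Cthrc1 fibroblasts differed past 2-fold in some protease and matricellular genes. Mmp3 stood at 749 UPM in members and 334 UPM in Cthrc1 fibroblasts of the cluster, and Mmp13 at 123 UPM in members and 54.6 UPM in Cthrc1 fibroblasts. Tnxb was at 105 UPM in members and 44.6 UPM in Cthrc1 fibroblasts. Postn was lower, at 419 UPM in members and 978 UPM in Cthrc1 fibroblasts of the cluster (-1.22), as were Tnc (-1.03), Igf1 (-1.18) and Fmod (-1.47). The log2 ratios of Anxa8 (0.76), Sncg (0.50), Igfbp6 (0.60) and S100a4 (0.30) were under the 2-fold rule there, as were those of the proteases Mmp2 (-0.56), Adamts5 (0.50) and Adam19 (-0.44) and of the matricellular genes Spp1 (-0.61) and Ctgf (-0.26). In all 243 cells of the cluster without Msln, Mmp3 was at 604 UPM, Mmp13 at 62.3 UPM, Tnxb at 64.3 UPM and Postn at 691 UPM. Each of these values lay between the members and the Cthrc1 fibroblasts of the cluster. The 243 cells include those 138 Cthrc1 fibroblasts, however, so the pooled values are pulled toward them. Levels in the other 105, with under 2 Cthrc1 UMIs, were not taken apart. Cthrc1 fibroblasts of the cluster were chosen by their Cthrc1 and the members were not. The part of that choice in the result was not tested.

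**Figure D4:**
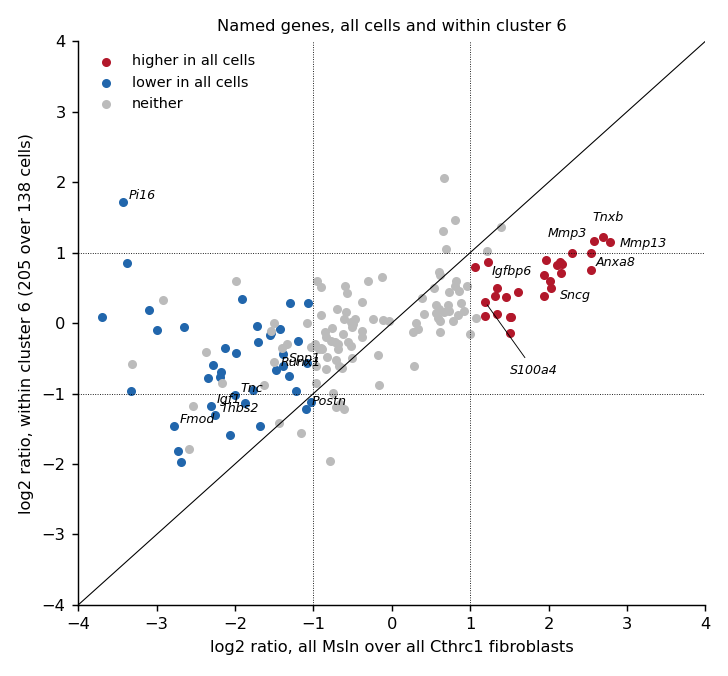
Log2 ratio of Msln over Cthrc1 fibroblasts for the named genes apart from Msln and Cthrc1, with all cells (horizontal) and with the 205 and 138 cells of cluster 6 (vertical); dotted lines mark 2-fold and the solid line equality. Mmp3, Mmp13 and Tnxb are past 2-fold on both axes, while S100a4 stands at 0.30 within the cluster.

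Against the 2077 other bleomycin fibroblasts, 166 of 5557 genes were higher in Msln fibroblasts (2.99%) and 330 were lower (5.94%), with a median of -0.11. Anxa8 (3.83), Kcnn4 (3.27), Sbsn (3.05), Mmp13 (2.94) and Cdh13 (2.91) led. Kcnn4, a calcium-activated potassium channel, had 27.4 UPM in Msln fibroblasts and 1.95 UPM in the other fibroblasts. Of 14 measured collagens 4 were higher, Col5a1, Col5a3, Col6a3 and Col15a1, and 1 was lower. Inflammatory and immediate early genes were lower: 9 of 12 cytokine and acute phase genes, 5 of 8 complement genes and 7 of 12 immediate early genes, with none higher in these lists. Il6 had 28.7 UPM in Msln fibroblasts and 99.5 UPM in the other fibroblasts (-1.76), and Lcn2, lipocalin 2, 7.90 UPM in Msln fibroblasts and 157 UPM in the other fibroblasts (-4.15). Of 8 measured alveolar fibroblast markers 6 were lower, among them Npnt, Tcf21 and Inmt, and 0 were higher.

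Against the 3556 saline fibroblasts, 445 of 5884 genes were higher in Msln fibroblasts (7.56%) and 887 were lower (15.1%), with a median of -0.11. The markers stood out here by size: S100a4 was at 4536 UPM in Msln fibroblasts and 16.6 UPM in saline fibroblasts (8.01), and Anxa8 was at 7.98 on the log2 scale. Ctla2a, a cathepsin inhibitor, had 2095 UPM in Msln fibroblasts and 3.97 UPM in saline fibroblasts (8.72), but it was also at 1003 UPM in Cthrc1 fibroblasts and 1499.5 UPM in the other bleomycin fibroblasts. Of the measured genes, 8 of 14 collagens and 7 of 12 matricellular genes were higher. In contrast, 9 of 10 alveolar fibroblast markers, 9 of 9 complement genes and 9 of 9 antigen presentation genes were lower. The antigen presentation genes summed to 1949 UPM in Msln fibroblasts, 1872 UPM in Cthrc1 fibroblasts and 2946 UPM in the other bleomycin fibroblasts, against 7690.2 UPM in saline fibroblasts. Transcripts of epithelial cells moved with the library as well: Sftpc was at 7.40 UPM in Msln fibroblasts and 785 UPM in saline fibroblasts, and Scgb1a1 at 17.5 UPM in Msln fibroblasts and 858 UPM in saline fibroblasts. Their part in the result was not tested.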

How the data were processed

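Droplet libraries (10x 3' V2) of sorted tdTomato+ lung cells were deposited by the authors as UMI count matrices, made with Cell Ranger 2.1.1 on mm10 per the submitters' processing notes; for the annotation release and the cell-calling settings, neither is stated in the sources used here. The counts are raw. From them, 4468 of 4473 bleomycin and 5432 of 5455 saline barcodes passed at least 500 genes and at most 10% mitochondrial UMIs. The members, gene lists and comparisons were chosen with earlier results of these data known.

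Counts were summed over each set of cells and scaled to a total of 1000000 (UPM). The log2 ratio has a prior of 1 UPM, while its interval is the exact conditional binomial one without the prior, so that for low genes the ratio can lie outside it. A gene was tested with at least 50 UMIs and 20 UPM in the higher set and called at 2-fold. With 1 library per group there is no p-value, and intervals cover counting error only. A count of 0 allows up to 3 counts, 0.504 UPM in Msln fibroblasts. The text names the list markers, the 15 highest and 15 lowest genes over Cthrc1 fibroblasts, 5 each way in the other comparisons and members of the fixed lists, leaving out of the ranked ones genes with over 25% of the members' UMIs in 1 cell.

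Clusters used 2000 variable genes, 30 components, 15 neighbours and resolution 1. Scrublet marked 8 saline and 4 bleomycin barcodes automatically, too few to have worked, so no doublet was removed; an alternative left out the highest scores (237 saline and 160 bleomycin barcodes). The summing and calling were tested on simulated data. Python 3.11.15, numpy 2.4.6, scipy 1.17.1, pandas 2.3.3, scanpy 1.11.5 and igraph 0.11.9 were used.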

Additional observations from a re-analysis of the deposited data

How the results depend on the processing

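No paired analysis was possible because each treatment has 1 library. Of the named genes called in the main comparison, 84 of 84 kept their sign under all 13 settings over the other bleomycin fibroblasts, 99 of 99 under 13 over saline fibroblasts, and 39 of 69 under 19 over Cthrc1 fibroblasts. Changing the prior or centring the ratios could not turn the sign of a called gene. The settings by cluster were run over Cthrc1 fibroblasts only. Higher and lower calls over Cthrc1 fibroblasts, other bleomycin fibroblasts and saline fibroblasts were 311 and 364, 377 and 789, and 935 and 1569 at 1.5-fold, and 222 and 382, 301 and 870, and 875 and 1977 with no filter on low counts. With members of at least 2 Msln UMIs (4.90% of fibroblasts), 164 were higher and 252 lower over Cthrc1 fibroblasts. With the rule applied after thinning (5.11%), 268 were lower over Cthrc1 fibroblasts, 109 higher over the others and 285 higher over saline. Without cells with mesothelial transcripts, most of them Upk1b (6.65%), 193 were lower over Cthrc1 fibroblasts.

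Settings by cluster, and one without comparison cells with 2 or more UMIs of Pi16, Ccl11, Cxcl9 and Scx, were chosen after seeing the data. With all members over comparison cells of cluster 6 only, 36 genes were higher and 7 lower, of which 9 and 5 were also called in the main comparison. With both sets inside it 13 were higher and 18 lower, and with both outside it 76 were lower. These log2 ratios over Cthrc1 fibroblasts changed sign, and the cause was not tested. With 2 or more Msln UMIs, Inmt was -0.80, and in members with 2 or more Cthrc1 UMIs -1.35. Without the Pi16, Ccl11, Cxcl9 and Scx cells, Cxcl9 was 0.18, Ccl11 1.13 and Pi16 1.004. Inside cluster 6, Bpgm was 0.34, Lum 0.18, Igfbp2 0.85, Cxcl9 0.089, Cdkn2b 0.29, Angptl4 0.28, Inmt -0.14 and Pi16 1.71. Over comparison cells of cluster 6, S100a4 was -0.064, Scx 0.62, Fbn2 0.22, Igf1 0.99, Ltbp2 0.17, Cotl1 0.47, Cnn1 0.39, Bpgm 1.001, Kcnn4 -0.048, Spp1 1.52, S100a10 -0.23, Mmp2 0.14, Adam19 0.20, Col8a1 0.74, Fbln5 0.37, Lum 2.22, Tgfb3 0.12, Igfbp2 0.71, Igfbp5 -0.19, Cxcl9 0.62, Ccl11 1.07, Cxcl10 0.54, Lgals3 -0.088, Cdkn2b 0.42, Mdk 1.05, Angptl4 1.80, Runx1 0.031, Pi16 1.51 and Tppp3 -0.349. Depth limits what a single Msln UMI shows.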

Other observations

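The genes of this paragraph were chosen after their values were seen. The water channel gene Aqp1 had 705 UPM in Msln fibroblasts and 185 UPM in Cthrc1 fibroblasts (1.93 on the log2 scale). Gsn, which encodes the actin-severing protein gelsolin, had 4990.2 UPM in Msln fibroblasts and 1459 UPM in Cthrc1 fibroblasts (1.77). The metallothioneins Mt1 and Mt2, which bind zinc, were higher at 1.19 and 1.30. Mt3 was at 44.0 UPM in Msln fibroblasts and 2.11 UPM in Cthrc1 fibroblasts, with 27.9% of the members' UMIs in 1 cell.

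Outside fibroblasts, 38 of the 39 Msln UMIs of the saline library lay in 5 of 348 epithelial cells, 30 of them in 1 cell. In the bleomycin library 44 Msln UMIs lay in 8 of 184 endothelial cells, 37 of them in 1 cell.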
